A study of Mus with 8 samples.

Results

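Most of the 33 genes described here encode proteins that form, restrain or dissolve a blood clot. Among them, Fgl1 is a relative of fibrinogen that lacks the parts that form a clot. The 33 were taken by symbol from the 54532 genes of the deposited table, where each was found once. They fall into 15 clotting factors, 4 fibrinogen genes (Fgl1 included), 8 anticoagulants and 6 genes of fibrinolysis. The livers came from mice with colitis caused by dextran sulfate sodium (DSS), an orally given polysaccharide that injures the colonic lining, at 2.5% until day 6. The labels place 4 libraries (15, 48, 49 and 50) in a group given DSS, and 4 (35, 45, 65 and 71) in a group given alcohol, a high-fat diet and DSS, here called the diet-alcohol group. Both groups thus carry DSS, diet and alcohol were given together, and the labels read here give neither the feed of the DSS group nor strain, age or sex. They do not say whether each library is a separate mouse, so a p-value covers the variation among these libraries only, which may be partly technical.

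Clotting starts when tissue factor (F3) meets factor VII, or when factor XII, prekallikrein (Klkb1) and kininogen assemble on a surface. Both routes activate factor X, which with its cofactor factor V turns prothrombin (F2) into thrombin, and thrombin cuts fibrinogen into fibrin. Antithrombin (Serpinc1), the protein C system and tissue factor pathway inhibitor hold the cascade back, and plasmin dissolves the clot. Hepatocytes secrete most of these proteins, while factor VIII, von Willebrand factor and thrombomodulin come mainly from endothelial cells. Fibrinogen is also a classic acute-phase protein, whose genes respond to interleukin-6.

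Each library held 12502300 to 16967839 counts, of which nuclear genes had 2722757 to 10947612. The remainder was mitochondrially encoded RNA, which took 65.2% ± 11.4 of the counts in the DSS group and 45.2% ± 19.2 in the diet-alcohol group (SD, n = 4 per group; two-sided exact permutation test, p = 0.143, where the smallest possible is 0.0286). Library 35 stood apart, with only 784 genes having 1 to 9 counts, where the other 7 had 4319 to 4987 such genes, so results are also given without it. Hepatocyte markers fixed for this report (8 of 8 tested, Alb among them) were abundant in all 8 libraries, with a summed 41178 to 64556 CPM (counts scaled to library size by TMM) in the DSS group and 23230.2 to 29079 in the diet-alcohol group. None of the 8 passed the test for a change by edgeR (2 at an unadjusted p under 0.05, 1 lower by DESeq2, 0 by limma-voom), and their median log2 fold change was -0.41. Most of the sum is Alb, with a mean of 42304 CPM in the DSS group and 18457 in the diet-alcohol group. Of the other markers, Apob, Ttr and Apoa1 stood at -0.99, -0.93 and -0.62 in log2 units. Tat, Asgr1, Tdo2 and Serpina1c stood at 0.01, -0.05, -0.18 and -0.21. Neutrophil markers (3 of 9 tested, and all 3 rose with edgeR, 1 with limma-voom) summed to 2.88 to 12.2 and 27.7 to 57.5 CPM, and their part in the results below was not tested. Of the 3, Retnlg had 4, 2, 1 and 2 counts in DSS libraries 15, 48, 49 and 50. It passed the filter on low counts through its diet-alcohol counts alone, so it had to differ. Most of the diet-alcohol sum came from S100a8 and S100a9, with means of 17.6 and 18.9 CPM there. The 6 untested markers were scarce. Their total counts in the DSS and diet-alcohol groups were 13 and 12 for Elane, 2 and 6 for Ly6g and 1 and 27 for Mpo. For Ngp they were 3 and 17, for Camp 8 and 19 and for Mmp8 3 and 44. Stellate cell markers summed to 84.0 to 242 and 70.05 to 292 CPM. Cholangiocyte markers summed to 12.97 to 25.2 and 9.92 to 60.7 CPM, and erythroid genes to 174 to 2243 and 396 to 808 CPM. The erythroid sum of 2243 CPM was that of DSS library 15. DSS libraries 48, 49 and 50 had 174, 212 and 276 CPM, below every diet-alcohol library. None of the 5 erythroid genes tested passed by edgeR, DESeq2 or limma-voom. In bulk tissue, fewer cells of a type and less RNA per cell cannot be told apart.

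Of the 33 members, 30 passed the filter on low counts and were tested among 11729 genes. With edgeR's quasi-likelihood test (adjusted p under 0.05), 2 members rose in the diet-alcohol group, the fibrinogen-like gene Fgl1 and the kininogen gene Kng2, and 1 fell, the factor V gene F5. That is 6.67% of the tested members higher and 3.33% lower, against a background of 0.588% higher and 0.674% lower among all genes tested (1.26% in either direction). The members are abundant, however: among the 485 genes with a mean of at least 100 CPM the shares were 4.12% and 5.15%, and all 3 called members are among the 19 members in that set. The median log2 fold change of the tested members was 0.06, beside -0.01 for all genes tested. For 11 of the 30 the ranges of the groups did not overlap (9 higher, 2 lower), against 8.77% of all genes tested and 26.6% of genes with at least 100 CPM, a set in which 9 of 19 members did not overlap. The other 2 were Vwf and F13a1, and F13a1 passed the filter through its diet-alcohol counts alone, so it had to differ. Other tests called more members. DESeq2 called 8 higher and 2 lower (background 1.88% and 2.25%), and limma-voom 3 and 1 (0.392% and 0.639%). F13a1 is among the 8 called with DESeq2. The authors' deposited table calls 7 and 2 (0.942% and 1.14%). At an unadjusted p under 0.05 in edgeR, 8 were higher and 6 lower (5.94% and 5.72%). F13a1, which had to differ, is also among the 7 higher of the authors and the 8 higher at an unadjusted p. The same shares of all genes tested are the background for the counts by class and list. For DESeq2, limma-voom, the authors' calls and the unadjusted p, no share among genes with at least 100 CPM was taken.

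**Figure D1:**
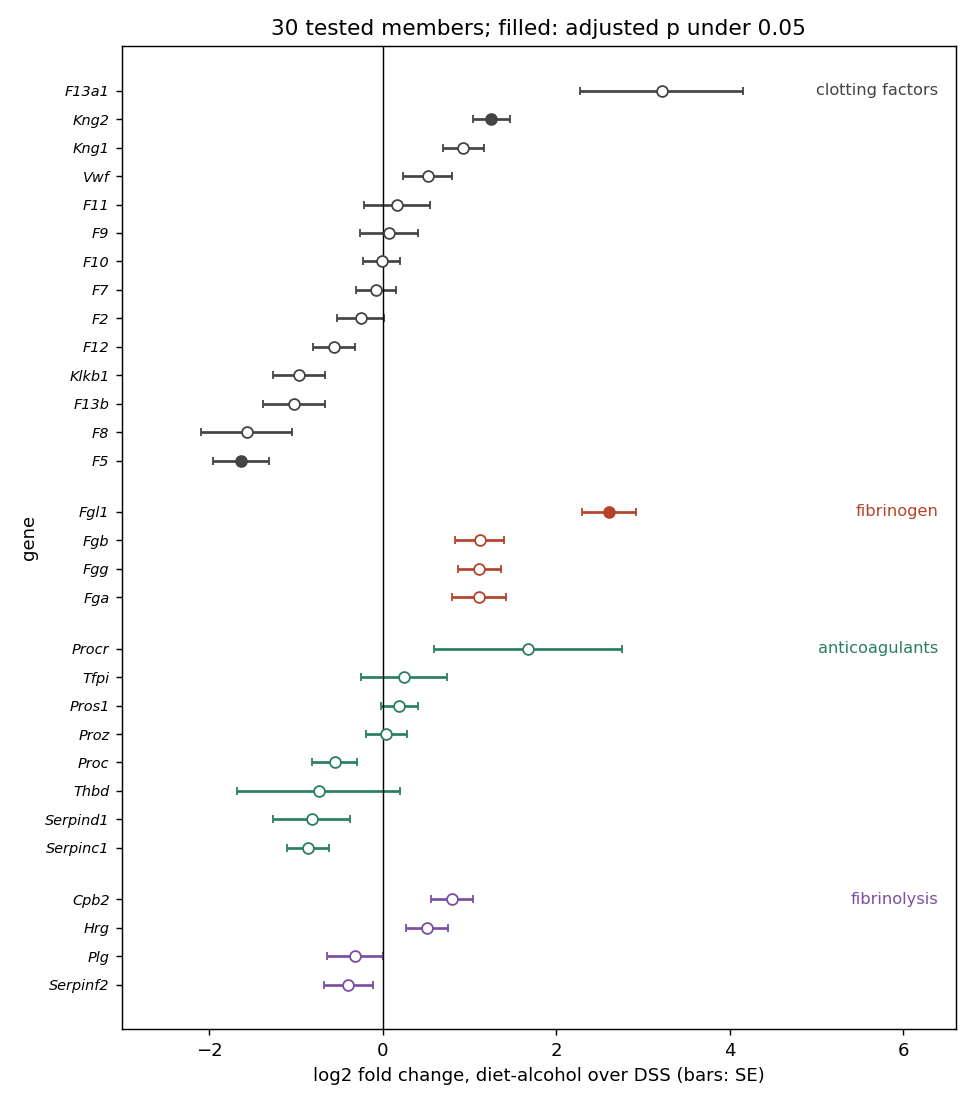
log2 fold change of each of the 30 tested members (x axis, diet-alcohol over DSS; bars are the standard error) by class (y axis). Filled points, Fgl1 at 2.61, Kng2 at 1.25 and F5 at -1.63, passed an adjusted p of 0.05, and all 4 fibrinogen genes lie to the right of 0.

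The members span a wide range of levels, which can be compared between genes only per length, on the authors' FPKM scale (counts scaled to gene length and library size). Such levels depend on the gene length used, for example 8546 bases for Serpinc1 and 2093 for Fgg. In the DSS group 24 members had mean levels of 10.1 to 915 FPKM and the other 9 had means under 1 FPKM. The upper set holds the proteins that hepatocytes secrete, led by Fga at 915 ± 156, Fgg at 887 ± 130.3 and Fgb at 795 ± 127 FPKM (SD, n = 4). These 3 levels lie within each other's spread. Kng1 followed at 425 ± 72.4 FPKM, then the protein C gene Proc at 317 ± 54.8 and the plasminogen gene Plg at 279 ± 88.5, whose spreads overlap. Pros1, which encodes protein S, was the lowest of the 24. The lower set holds F8, Vwf, Thbd, Procr, Tfpi, F3, F13a1, Plat and Plau, several of which are made largely outside hepatocytes. In the diet-alcohol group Fgl1 stood at 333 ± 65.3 FPKM, up from 54.6 ± 19.5 in the DSS group, and ranked below only the 3 fibrinogen chains and Kng1 by its mean.

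**Figure D2:**
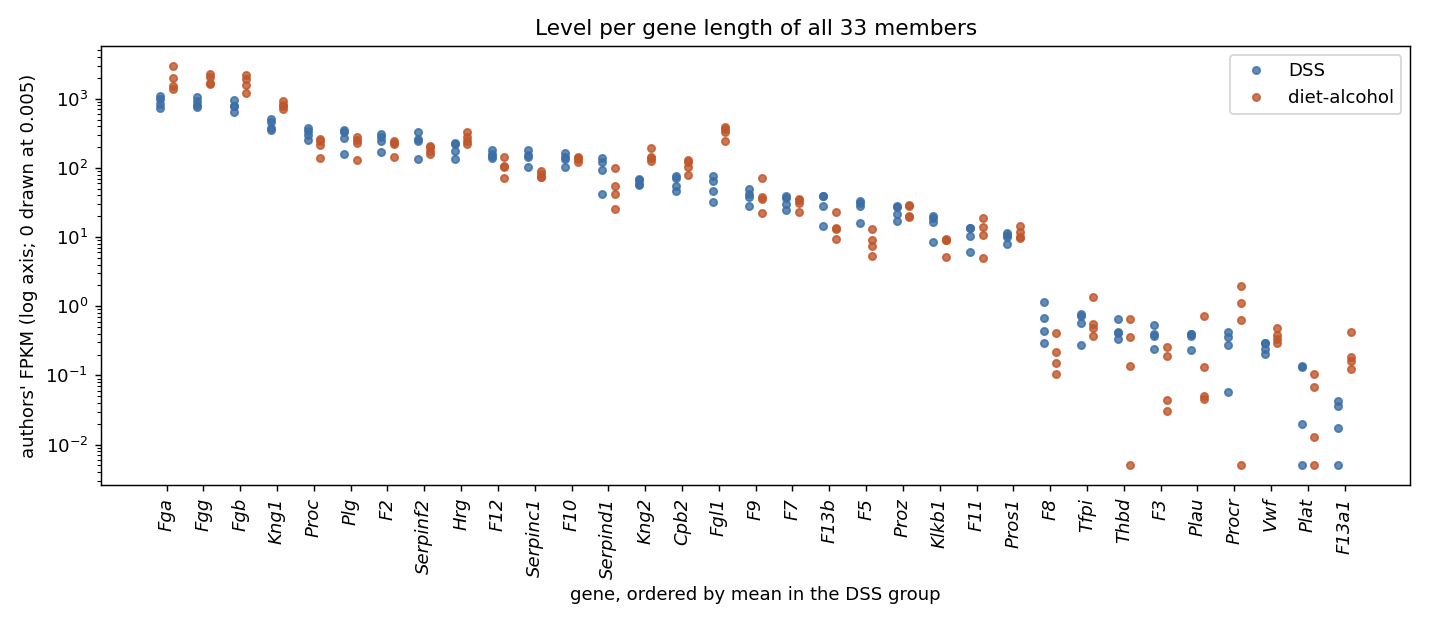
Level per gene length of all 33 members in each library (y axis, authors' FPKM, log axis), with genes ordered by their mean in the DSS group on the x axis. From Fga to Pros1, 24 genes have mean DSS levels of at least 10 FPKM, and 9 have means under 1.

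The 4 fibrinogen genes were higher in every diet-alcohol library than in any DSS library, by about the same factor for the 3 chains and by more for Fgl1. Only Fgl1 passed the edgeR test, against 0.588% of all genes tested and 4.12% of genes with at least 100 CPM that were higher. All 4 had an unadjusted p under 0.05, against 5.94% of all genes tested that were higher at that level. No such share was taken among genes with at least 100 CPM, the set to which all 4 belong. The groups did not overlap for 8.77% of all genes tested and 26.6% of genes with at least 100 CPM. The median log2 fold change of the 4 was 1.12.

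Fgl1 (ENSMUSG00000031594; chromosome 8, 41191434 to 41215156, GRCm38) encodes fibrinogen-like protein 1, a secreted hepatocyte protein that shares the fibrinogen fold but lacks the parts that form a clot. Its level was 341, 210.0, 291 and 145 CPM in DSS libraries 15, 48, 49 and 50. In diet-alcohol libraries 35, 45, 65 and 71 it was 1775, 1496, 1651 and 1102 CPM. Every diet-alcohol library was thus above the highest DSS library, which was 15, and the lowest of them was 71. Fgl1 rose 6.10-fold (log2 fold change 2.61 ± 0.31 SE, edgeR adjusted p = 0.0026). The call held in all 19 alternative fits, with 2.41 to 2.80 when 1 library was left out (2.52 without library 35) and 2.59 with the mitochondrial share as a covariate (edgeR adjusted p = 0.015). It is also the member with the smallest adjusted p in the authors' deposited table, where its log2 fold change is 2.61 (adjusted p = 1.0e-14).

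Fga, Fgb and Fgg encode the alpha, beta and gamma chains, which assemble in equal numbers into the fibrinogen molecule. They are neighbours on chromosome 3 (GRCm38), with Fgg at 83007724 to 83015049 and Fga at 83026076 to 83033627 on the plus strand and Fgb at 83040141 to 83049863 on the minus strand, and the table lists no other gene between them. Fga had 2241, 3043, 3356 and 2617 CPM in DSS libraries 15, 48, 49 and 50, against 9259, 6041, 4141 and 4811 in diet-alcohol libraries 35, 45, 65 and 71. Library 35 was the highest and 65 the lowest of the diet-alcohol group. Fgb had 2491, 3098, 3736 and 3059 CPM in the DSS libraries and 8662, 7498, 5978 and 4774 in the diet-alcohol libraries. Here the lowest diet-alcohol library was 71, and the groups did not overlap. Fgg had 1586, 1970.1, 2254 and 1779 CPM in the DSS libraries and 4859.7, 4437, 3563 and 3552 in the diet-alcohol libraries, with libraries 65 and 71 nearly level at the low end.

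The fold changes of the 3 chains lay within 1.11 to 1.12 on the log2 scale, 2.15-fold to 2.17-fold. None passed the edgeR test over all genes: Fgg had an adjusted p of 0.057 (log2 fold change 1.11 ± 0.25 SE), Fgb 0.094 (1.12 ± 0.28) and Fga 0.140 (1.11 ± 0.31). All 3 were called with DESeq2 (adjusted p = 2.9e-06, 2.8e-04 and 0.0046 in that order) and in the authors' deposited table (9.4e-05, 0.0012 and 0.0085). Fgg alone of the 3 was called with limma-voom (adjusted p = 0.047). The mitochondrial covariate left Fga, Fgb and Fgg at 0.95, 1.16 and 1.07. Without library 35 their log2 fold changes were 0.83 for Fga, 0.97 for Fgb and 1.02 for Fgg, and none passed the edgeR test when any 1 library was left out. Together the 3 chains took 1.64 to 2.06% of nuclear counts in the DSS libraries and 3.17 to 5.63% in the diet-alcohol libraries.

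**Figure D3:**
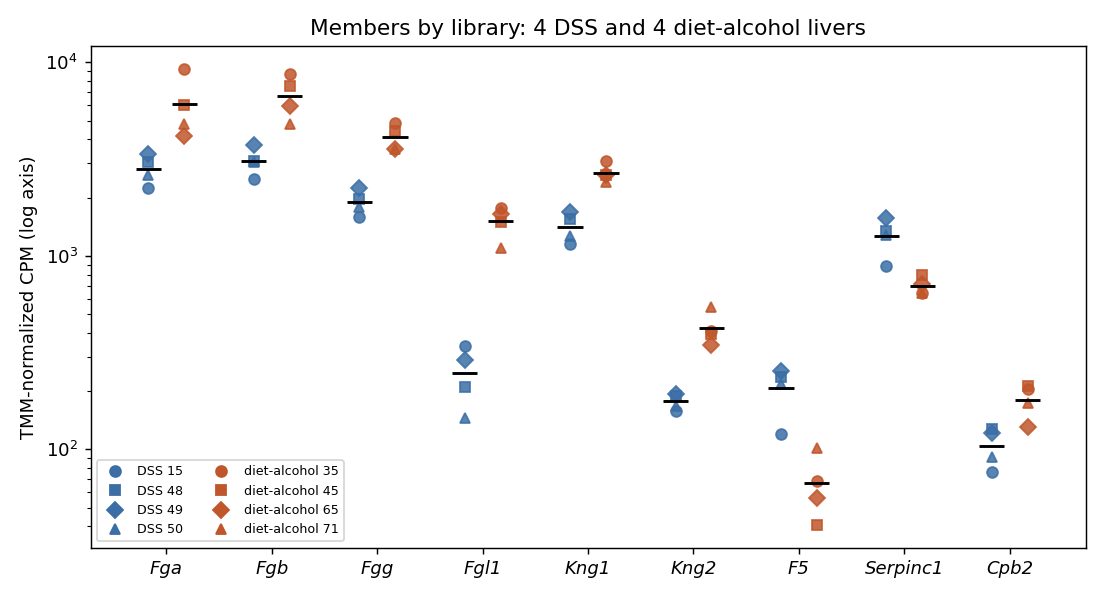
TMM-normalized CPM (y axis, log axis) of 9 members in each library, DSS in blue and diet-alcohol in orange, with 1 marker shape per library within a group and the group mean as a bar. Fgl1 runs from 145 to 341 CPM in the DSS group and from 1102 to 1775 in the diet-alcohol group, while F5 and Serpinc1 are lower in the diet-alcohol libraries.

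Ratios of counts per base of gene length within 1 library need no scaling between libraries; the pairs shown here and below were chosen after their values were seen. The ratio of Fga to Fgb was 1.14, 1.24, 1.14 and 1.08 in DSS libraries 15, 48, 49 and 50, and 1.35, 1.02, 0.877 and 1.28 in diet-alcohol libraries 35, 45, 65 and 71. The DSS values lay inside the range of the diet-alcohol values. For Fgg to Fgb the ranges were 1.06 to 1.16 and 1.02 to 1.35, again overlapping. Fgl1 to Fgb was 0.0408 to 0.118 in the DSS group and 0.171 to 0.237 in the diet-alcohol group, without overlap.

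**Figure D4:**
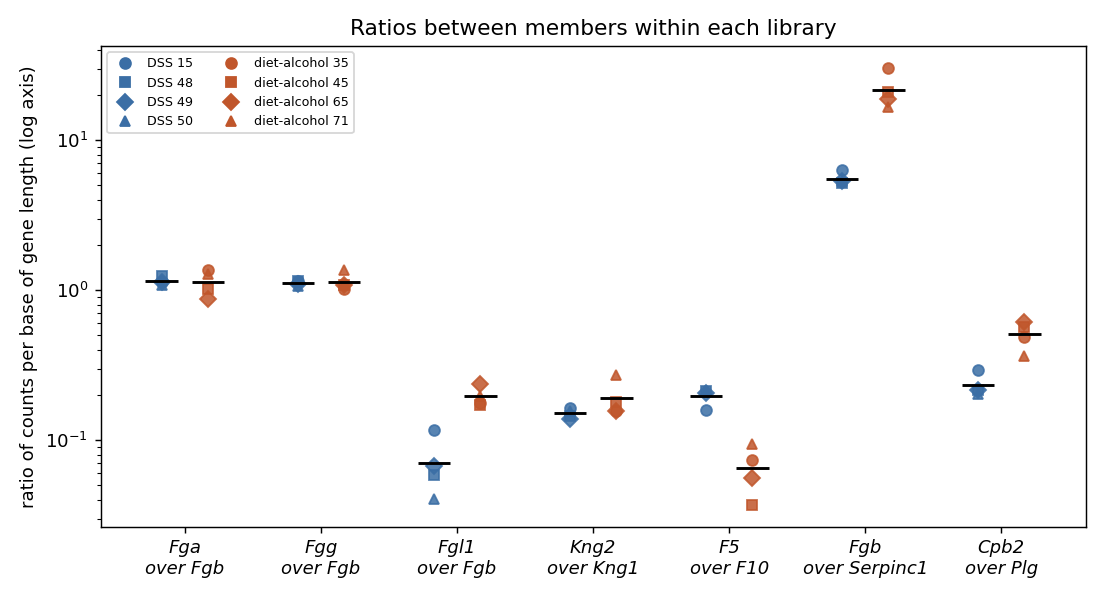
Ratio of counts per base of gene length between pairs of members within each library (y axis, log axis), DSS in blue and diet-alcohol in orange, with 1 marker shape per library within a group and group means as bars. The chain ratios overlap between the groups, whereas Fgb over Serpinc1 runs from 5.15 to 6.32 in the DSS group and from 16.6 to 30.3 in the diet-alcohol group.

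As fibrinogen is an acute-phase protein, 12 other genes of that kind were set beside it. The list was chosen with earlier results of these data known. Of these 12, 10 rose and none fell with edgeR, against 0.588% higher and 0.674% lower among all genes tested. Among genes with a mean of at least 100 CPM those shares were 4.12% and 5.15%. The median log2 fold change of the 12 was 2.80, against -0.01 over all genes tested. The haptoglobin gene Hp, which like fibrinogen responds to interleukin-6, was near Fgl1 in size, at 2.66 ± 0.31 (edgeR adjusted p = 0.0026). The log2 fold changes of 6 others were above that of Hp: 5.94 for Saa2, 5.81 for Orm2, 5.78 for Saa1, 3.93 for Apcs, 3.43 for Orm1 and 2.95 for Serpina3n. Reads of Orm1 and Orm2, and of Saa1 and Saa2, may have been split between these near-identical copies. Hpx, Itih3 and Itih4 rose by 1.98, 1.77 and 1.76, between the chains and Fgl1. Cp and Lbp did not pass with edgeR or limma-voom, at 0.83 and 0.71, below the chains, and DESeq2 called Lbp. Among 12 genes of fibrinogen gene control and the interleukin-6 axis, none passed the edgeR test (3 at an unadjusted p under 0.05; 1 higher and 1 lower with DESeq2, 0 with limma-voom). The median of that list was -0.16. Socs3, a feedback inhibitor that STAT3 induces, stood at 2.07 ± 0.62 (edgeR adjusted p = 0.166), Stat3 at 0.82 ± 0.30 and Cebpa, a hepatocyte transcription factor, at -0.92 ± 0.28.

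Among clotting factors 1 gene rose and 1 fell. Of 15, 14 were tested: with edgeR Kng2 rose, F5 fell and 12 did not pass. DESeq2 called 3 higher, adding Kng1 and F13a1, and 1 lower, and limma-voom called 1 and 1. The authors' deposited table calls 3 and 1. Of the 14, 3 were higher and 5 lower at an unadjusted p under 0.05, against 5.94% and 5.72% of all genes tested. Each of these counts of 3 higher includes F13a1, which passed the filter through its diet-alcohol counts alone and so had to differ. The median log2 fold change was -0.04.

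F5 (chromosome 1, 164151838 to 164220277, GRCm38) encodes factor V, the cofactor with which factor Xa makes thrombin. It had 121, 236, 255 and 218 CPM in DSS libraries 15, 48, 49 and 50. In diet-alcohol libraries 35, 45, 65 and 71 it had 68.7, 40.7, 56.2 and 102 CPM, all below the lowest DSS library, 15. F5 was 3.10-fold lower (log2 fold change -1.63 ± 0.32 SE, edgeR adjusted p = 0.033), and -1.65 without library 35. The call was lost when DSS library 48, 49 or 50 or diet-alcohol library 45 or 65 was left out (edgeR adjusted p up to 0.129), with log2 fold changes of -1.91 to -1.46 over the 8 such fits. The mitochondrial share as a covariate put F5 at -1.73 and also ended the call (edgeR adjusted p = 0.193). Set against F10, which encodes factor X, the partner it binds, the F5 ratio per length was 0.159, 0.214, 0.205 and 0.212 in DSS libraries 15, 48, 49 and 50. It was 0.0740, 0.0371, 0.0563 and 0.0944 in diet-alcohol libraries 35, 45, 65 and 71, with no overlap. The summed hepatocyte markers given above, mostly Alb, were likewise lower in every diet-alcohol library, and their part in the F5 value was not tested. An antisense gene, Gm16548, overlaps F5 with 375 counts in all 8 libraries together, against 14182 for F5.

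Kng1 and Kng2 encode kininogens, the carriers of bradykinin and cofactors of the contact pathway. They lie 28382 bases apart on chromosome 16 (GRCm38), Kng2 at 22985854 to 23029482 and Kng1 at 23057865 to 23082078, and are close copies, so the authors' counting may have split reads between them. Kng2 had 159, 189.5, 194 and 168 CPM in DSS libraries 15, 48, 49 and 50 and 408, 394, 344 and 546 in diet-alcohol libraries 35, 45, 65 and 71. It rose 2.38-fold (log2 fold change 1.25 ± 0.22 SE, edgeR adjusted p = 0.016), with library 71 the highest. The call was lost without DSS library 48, 49 or 50 or diet-alcohol library 45 (edgeR adjusted p up to 0.097) and after adding the mitochondrial share as a covariate (1.06, adjusted p = 0.128), and held without library 35 at 1.27. Kng1, the more abundant copy, had 1151, 1554, 1675 and 1267 CPM in the DSS libraries and 3090.4, 2619, 2628 and 2402 in the diet-alcohol libraries. Its groups did not overlap either, but it did not pass the edgeR test (log2 fold change 0.93 ± 0.23 SE, adjusted p = 0.098; 0.0021 in the authors' deposited table). The ratio of Kng2 to Kng1 per length was 0.138 to 0.164 in the DSS group and 0.156 to 0.270 in the diet-alcohol group, where library 71 alone exceeded 0.179.

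None of the vitamin K-dependent clotting factors F2, F7, F9 and F10, which need gamma-carboxylation to bind membranes, passed the test. F7 and F10 lie side by side on chromosome 8 (GRCm38) with Proz, 1498 and 4237 bases apart. Their log2 fold changes were -0.07 ± 0.23 for F7, -0.01 ± 0.22 for F10 and 0.04 ± 0.24 for Proz (SE; edgeR adjusted p of 0.943, 0.990 and 0.972). F10 ran from 279.6 to 457 CPM in the DSS group and from 341 to 403 in the diet-alcohol group. F9 and F2, the genes of factor IX and prothrombin, stood at 0.08 ± 0.33 and -0.25 ± 0.27. In the list of the vitamin K cycle and factor secretion, none of 6 genes passed by edgeR, DESeq2 or limma-voom, and none had an unadjusted p under 0.05. Its median was -0.09, with the carboxylase gene Ggcx at 0.20 ± 0.32.

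Of the contact pathway, Klkb1 and F11 lie 4657 bases apart on chromosome 8. Klkb1, prekallikrein, stood at -0.96 ± 0.30 in log2 units, with 85.5 ± 28.2 CPM in the DSS group and 43.8 ± 10.6 in the diet-alcohol group (SD, n = 4; edgeR adjusted p = 0.184), and the groups overlapped through DSS library 15. F11 stood at 0.17 ± 0.38 and F12, factor XII, at -0.56 ± 0.24 (adjusted p = 0.396). F13b, the carrier subunit of the fibrin-crosslinking factor XIII, stood at -1.02 ± 0.36 and did not pass (edgeR adjusted p = 0.254). Without library 35 it passed, at -1.33 (edgeR adjusted p = 0.042).

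Factors made largely outside hepatocytes were scarce. F13a1, the catalytic subunit of factor XIII, which macrophages and platelets make, had 4, 0, 1 and 2 counts in DSS libraries 15, 48, 49 and 50. It had 52, 21, 10 and 32 counts in diet-alcohol libraries 35, 45, 65 and 71, so it passed the filter through the diet-alcohol group alone. On the CPM scale the groups did not overlap (0 to 0.298 and 0.864 to 2.91), yet F13a1 did not pass the edgeR test (log2 fold change 3.21 ± 0.94, adjusted p = 0.155) and was called with DESeq2 (adjusted p = 0.017). Markers of platelets and megakaryocytes, of which 6 of 11 were tested and none passed with edgeR or limma-voom (3 higher at an unadjusted p under 0.05, 2 with DESeq2), had a summed 10.6 to 19.7 CPM in the DSS group and 23.3 to 57.3 in the diet-alcohol group. Their defining genes ranged from Pf4, at 1.79 ± 0.42 (edgeR adjusted p = 0.071; called with DESeq2), to Gp1bb at 0 counts in every library. Monocyte and macrophage markers (5 of 8 tested, none past the test with edgeR, DESeq2 or limma-voom; 2 higher at an unadjusted p under 0.05) summed to 44.1 to 84.5 and 71.6 to 123 CPM, and Kupffer cell markers (7 of 7 tested, with Marco the one that rose) to 204 to 318 and 297 to 638 CPM. Marco, at 4.13 in log2 units, gave 96.5, 54.9, 71.5 and 403 CPM in diet-alcohol libraries 35, 45, 65 and 71. The Kupffer cell sums there were 297, 309, 522 and 638 CPM. The other 6 Kupffer cell markers did not pass with edgeR. Their log2 fold changes ran from -0.41 to 0.62, with 2 of them negative. The part of platelets, monocytes, macrophages and Kupffer cells in the F13a1 values was not tested.

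Vwf, von Willebrand factor, which tethers platelets and carries factor VIII, had 3.43 to 4.91 CPM in the DSS group and 4.93 to 7.82 with diet and alcohol, just without overlap (log2 fold change 0.52 ± 0.28, edgeR adjusted p = 0.536). F8, factor VIII, stood at -1.57 ± 0.53 (adjusted p = 0.230), with 2.93 to 11.9 and 1.07 to 4.09 CPM. F8 had 405 counts in all, fewer than the 540 of Fundc2, which overlaps it on the other strand, so its value is uncertain where the strand setting is unknown. Sinusoidal endothelial markers (11 of 11 tested, none past the test by edgeR; 3 at an unadjusted p under 0.05, 1 lower with DESeq2, 0 with limma-voom) summed to 143 to 240.0 CPM in the DSS group and 87.8 to 208 in the diet-alcohol group, and their part in the F8 value was not tested. F3, tissue factor, was not tested for lack of counts, with 7 to 22 counts per DSS library and 1 to 12 per diet-alcohol library.

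None of the 8 anticoagulants passed the edgeR test; 1 was lower at an unadjusted p under 0.05 and 1 with DESeq2, and 0 were called with limma-voom. The median log2 fold change was -0.26. The gene with the smallest p was Serpinc1 (chromosome 1, 160978585 to 161005863, GRCm38), which encodes antithrombin, the main inhibitor of thrombin and factor Xa. It had 884, 1350.0, 1569.6 and 1279.9 CPM in DSS libraries 15, 48, 49 and 50, against 640.5, 800.0, 715 and 645 in diet-alcohol libraries 35, 45, 65 and 71. The groups did not overlap, with DSS library 15 nearest to the diet-alcohol group. Its log2 fold change was -0.86 ± 0.24 SE (edgeR adjusted p = 0.139), -0.82 without library 35. It was called with DESeq2 (adjusted p = 0.0046) and in the authors' deposited table (0.018). The mitochondrial covariate left it at -0.77. Alb, the albumin gene, a negative acute-phase protein of hepatocytes, was also lower without overlap, at -1.20 ± 0.31, and did not pass with edgeR (adjusted p = 0.115) but was called with DESeq2.

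Within each library, Fgb stood 6.32, 5.15, 5.34 and 5.36 times above Serpinc1 per length in DSS libraries 15, 48, 49 and 50. In diet-alcohol libraries 35, 45, 65 and 71 the ratio was 30.3, 21.0, 18.8 and 16.6. All 4 diet-alcohol ratios were above the highest DSS ratio, and this comparison does not depend on how libraries were scaled. The gene lengths used were 3810 bases for Fgb and 8546 for Serpinc1. The size of the ratio depends on these lengths, whereas the absence of overlap between the groups does not. The ratio pairs a gene with a positive log2 fold change with one whose value was negative. Set against F2 instead, the Serpinc1 ratio per length was 0.503 to 0.636 in the DSS group and 0.322 to 0.580 in the diet-alcohol group. Those ranges overlapped, through library 65.

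Proc, the gene of protein C, which inactivates factors V and VIII, had 395, 548, 604 and 482 CPM in the DSS libraries and 221, 392, 343 and 427 in the diet-alcohol libraries. The groups overlapped (log2 fold change -0.55 ± 0.26, edgeR adjusted p = 0.438). Serpind1, heparin cofactor II, had 94.0, 273, 308 and 209 CPM in DSS libraries 15, 48, 49 and 50 and 124, 93.8, 56.2 and 228 in diet-alcohol libraries 35, 45, 65 and 71, spreads that also overlapped (-0.82 ± 0.44, adjusted p = 0.532). Pros1, the gene of the protein C cofactor protein S, stood at 0.19 ± 0.21. The endothelial members were scarce: Procr, the protein C receptor, had 1 to 12 counts per DSS library and 0 to 58 per diet-alcohol library (log2 fold change 1.67 ± 1.08). Thbd, thrombomodulin, had 11 to 36 and 0 to 33 counts (-0.74 ± 0.94). Both were listed at 0 in library 35, the library with few genes of 1 to 9 counts, so no limit is read from these zeros. Without that library Procr stood at 2.07 (edgeR adjusted p = 0.103) and Thbd at -0.35 (edgeR adjusted p = 0.848). Tfpi, the tissue factor pathway inhibitor, had 1.496 to 4.28 CPM in the DSS group and 2.10 to 7.56 in the diet-alcohol group (0.24 ± 0.49).

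Of the 6 fibrinolysis genes, 4 were tested and none passed with edgeR (1 at an unadjusted p under 0.05, 1 higher with DESeq2, 0 with limma-voom; median log2 fold change 0.10). Cpb2 encodes thrombin-activatable fibrinolysis inhibitor, a carboxypeptidase that trims the fibrin sites where plasminogen binds. It had 76.3, 128, 121 and 90.9 CPM in DSS libraries 15, 48, 49 and 50 and 206, 213, 131 and 173 in diet-alcohol libraries 35, 45, 65 and 71. The groups met at DSS library 48 and diet-alcohol library 65 without overlapping, and the log2 fold change was 0.80 ± 0.25 SE (edgeR adjusted p = 0.180; 0.040 with DESeq2), or 0.73 without library 35. Hrg, histidine-rich glycoprotein, which binds plasminogen and lies 24197 bases from Kng2, had 271, 451, 461 and 361 CPM in the DSS libraries and 676, 502, 445 and 574 in the diet-alcohol libraries. These values overlapped (0.51 ± 0.24, edgeR adjusted p = 0.462).

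Plg, plasminogen itself, stood at -0.32 ± 0.32, from 593 to 1344 CPM in the DSS group and from 483 to 1083 in the diet-alcohol group. Serpinf2, alpha-2-antiplasmin, the plasmin inhibitor, had 314, 614, 781 and 591 CPM in DSS libraries 15, 48, 49 and 50 and 485, 485, 367 and 413 in diet-alcohol libraries 35, 45, 65 and 71, with overlap (-0.39 ± 0.28, edgeR adjusted p = 0.671). Per length, the ratio of Cpb2 to Plg was 0.203 to 0.293 in the DSS group and 0.364 to 0.616 in the diet-alcohol group. The plasminogen activators were too scarce to test: Plat had 0 to 7 counts per DSS library and 0 to 11 per diet-alcohol library, and Plau 6 to 15 and 1 to 31. The diet-alcohol 0 of Plat was that of library 35, and no limit is read from it.

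Among 26 other regulators of coagulation and fibrinolysis, 22 were tested and 1 rose and none fell with edgeR (median -0.06); 2 were higher and 3 lower at an unadjusted p under 0.05. DESeq2 and the authors' deposited table each call 1 higher and 1 lower, and limma-voom 1 higher. The gene that rose was Serpina10, the protein Z-dependent inhibitor of factor Xa, whose cofactor, protein Z, is encoded by Proz. Serpina10 had 49.1, 36.8, 53.9 and 29.8 CPM in DSS libraries 15, 48, 49 and 50 and 177, 159, 153 and 95.4 in diet-alcohol libraries 35, 45, 65 and 71, without overlap. It rose 3.44-fold (log2 fold change 1.78 ± 0.27 SE, edgeR adjusted p = 0.0078), with 1.63 to 1.94 when 1 library was left out. Leaving out DSS library 48 ended the call (edgeR adjusted p = 0.053), and the other 7 such fits kept it. The mitochondrial covariate put it at 1.82 (edgeR adjusted p = 0.042). Of 13 thrombin and platelet receptor genes, 7 were tested and none passed with edgeR or limma-voom (3 at an unadjusted p under 0.05, 2 higher with DESeq2; median 1.18). The smallest p there belonged to Itgb3, an integrin subunit of platelets and other cells, at 1.78 ± 0.46 (edgeR adjusted p = 0.108).

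Scaling sets the base of these comparisons. When libraries were scaled to total counts, mitochondrial RNA included, the median log2 fold change of all genes tested moved from -0.01 to 0.63, and that of the members to 0.76. The share of higher among all calls then went from 46.6% to 84.3%. On that scale Serpinc1 stood at -0.17, and F5 stood at -0.85 and was not called, while Fgl1 stood at 3.14 and Kng2 at 1.97.

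**Figure D5:**
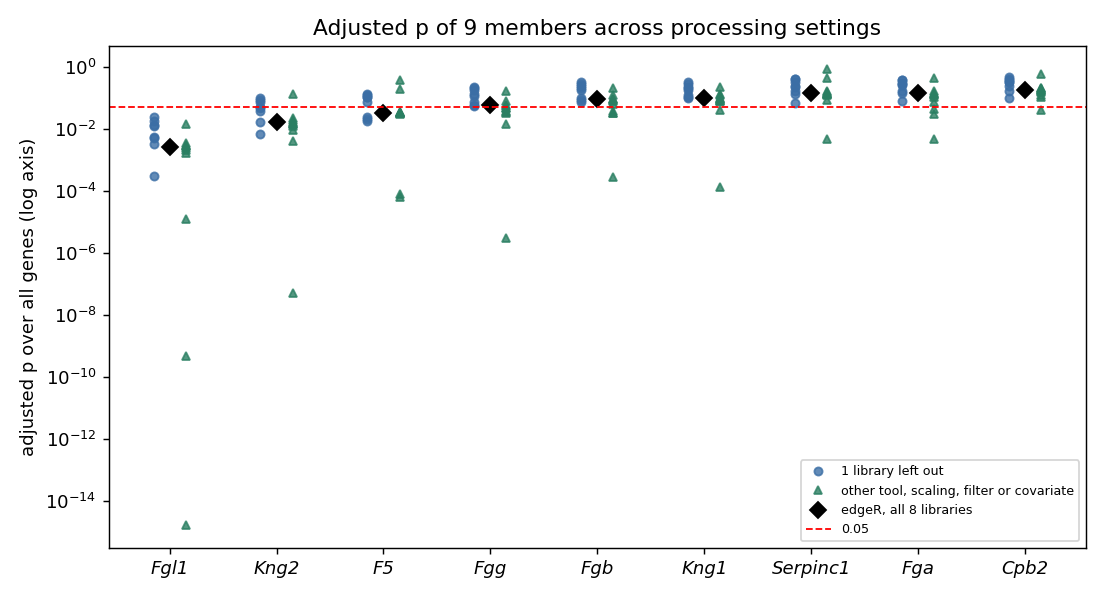
Adjusted p over all genes (y axis, log axis) of 9 members with all 8 libraries in edgeR (black), with 1 library left out (blue) and under other tools, scalings, filters or a covariate (green); the dashed line is 0.05. Fgl1 stays below the line throughout, F5 and Kng2 lie on both sides, and the fibrinogen chains lie above it in every fit that leaves out 1 library.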

How the data were processed

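RNA of 8 mouse liver libraries was analysed from one table. The authors deposited raw counts per gene and library for 54532 genes. They also deposited FPKM values, which were used here only to compare levels between genes. The authors' deposited table gives group means of normalized counts (a signal, not used), a log2 fold change, a p-value and an adjusted p-value, whose tool is not given in the sources used here. Builds GRCm38 and mm10 are named per the submitters' processing notes; aligner, counter and strandedness were not given in the sources used here.

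All genes were filtered with filterByExpr, TMM-normalized and fitted in edgeR 4.0.16 (robust quasi-likelihood F test, R 4.3.3; Benjamini-Hochberg over all 11729 genes tested, threshold 0.05). Standard errors are the log2 fold change divided by the root of F. CPM values use TMM-scaled library sizes. Total counts per library are given with the results. The test was tried on simulated data. Alternatives were DESeq2 1.42.0, limma-voom (limma 3.58.1), 2 other normalizations, 2 other filters, a non-robust fit, a threshold of 0.01, no mitochondrial genes, the mitochondrial share as a covariate and leaving out each library; 2 scalings without TMM were added after the data were seen. Samples were grouped by title.

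Members and lists were chosen with earlier results of these data known, so lists are described by counts and medians. Values per library are given for members past the threshold, the fibrinogen genes and the 3 smallest p in each other class. Other lists name at most 4 genes past the threshold. Genes outside that rule (Alb, Apob, Ttr, Apoa1, Tat, Asgr1, Tdo2, Serpina1c, Hp, Saa1, Saa2, Hpx, Itih3, Itih4, Pf4, Gp1bb, Cp, Lbp, Socs3, Stat3, Cebpa, Ggcx, Itgb3 and Fundc2) were named after their values were seen.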

Additional observations from a re-analysis of the deposited data

Results flagged for a closer look

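Klkb1, prekallikrein, had 28.0 CPM in diet-alcohol library 35, far below the other 3 libraries of its group, whose nearest was 48.05 CPM; the gap took 0.911 of the group's range, more than Dixon's 95% critical value for 4 samples allows. It was the only one among 60 groups of 4 values (30 members in 2 groups), and chance gives about 1 in 20. Without library 35 the log2 fold change of Klkb1 was -0.80 (edgeR adjusted p = 0.155), against -0.96 with it.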

How the results depend on the processing

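Of the 11729 genes tested, 148 changed; the count was 484 with DESeq2, 320 without a filter on low counts, 55 with the mitochondrial share as a covariate, 61 at a threshold of 0.01, 281 scaled to total counts, and 58 to 308 when 1 library was left out, the lowest without DSS 48 and the highest without diet-alcohol 35. Of the members, 3 changed; the count was 10 with DESeq2, 6 without a filter, 1 with the covariate and 1 at 0.01 (Fgl1 in both), 6 scaled to total or to nuclear counts, and 1 to 4 when 1 library was left out: it was 1, Fgl1, without DSS 48, 49 or 50 or diet-alcohol 45, 2 without diet-alcohol 65, and 4, with F13b, without diet-alcohol 35. The cause was not tested. No member changed sign in a fit that called it. The Fgl1 call held in all 19 alternative fits, that of Kng2 in 14 and that of F5 in 12; Fgg, uncalled, passed in 7, Fgb in 4 and Fga in 3. F3, Plat and Plau had 73, 34 and 80 counts in all, too few to be tested. No paired analysis was possible because no number in the titles occurs in both groups.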

Other observations

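A2m, which encodes alpha-2-macroglobulin, a protease inhibitor that also binds plasmin, had 0 counts in all 4 DSS libraries. In the diet-alcohol group it had 0, 177, 2 and 5 counts in libraries 35, 45, 65 and 71, so nearly all came from library 45, and the filter on low counts left it untested. No limit is read from the 0 of library 35, the library with few genes of low counts. Lrp1, a receptor that clears factor VIII and complexes of proteases with their inhibitors, had 211, 345, 466 and 464 CPM in the DSS libraries and 62.7, 153, 164 and 158 in the diet-alcohol libraries, without overlap (log2 fold change -1.47 ± 0.35 SE, edgeR adjusted p = 0.081, not past the threshold). It was called in 4 of 19 alternative fits: DESeq2 (adjusted p = 0.0025), no filter on low counts (0.0011) and edgeR without DSS library 15 (0.046) or diet-alcohol library 35 (0.029). Both genes were chosen after their values were seen.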
